A study of Mus musculus with 15 samples.

Results

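The genes described here are the 37 genes of mouse mitochondrial DNA (mtDNA), namely 2 rRNA genes, 13 protein-coding genes and 22 tRNA genes. They were chosen by name, as every gene of the count tables whose mouse symbol starts with mt-, and make up 37 of 57180 gene identifiers. Their counts came from RNA-seq of brain stem tissue of C57BL/6 mice, in 15 libraries from 2 experiments. The neonatal experiment holds 3 libraries labelled AMPK+/+ and 3 labelled AMPK-/-, from littermates, of which the study names the deleted subunit as AMPKα2, and the prenatal experiment holds 3 each labelled LMX1B+/+, LMX1B+/- and LMX1B-/-. AMP-activated protein kinase (AMPK) restores cellular energy balance, and Lmx1b is a transcription factor of dorsal-ventral patterning. Complete loss of Lmx1b is embryonic lethal by the study's account, and its mutants were sampled as embryos. The study asked how the kinase and the factor act on brain stem centers for breathing. The methods describe mice of postnatal days 1 to 5 without tying them to libraries, and the ages of the embryos and the construction of the alleles are not given in the sources used here. The labels name no treatment. They also do not say whether each library came from a separate animal, so p-values measure only the spread between these libraries, which may be technical.

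Mitochondria keep a small circular genome that encodes the RNAs of their own ribosome, a set of tRNAs and core subunits of the respiratory chain, whereas their other proteins are made from nuclear genes and imported. Both strands are transcribed by the polymerase Polrmt into long precursors, which are cut mostly at the tRNAs that lie between the other genes. The level of each RNA is therefore set by processing and decay as well as by transcription. Brain tissue relies on oxidative phosphorylation and is rich in these RNAs.

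The total count ranged from 28833130 to 37441679 in the LMX1B libraries and from 14975095 to 17384171 in 4 AMPK libraries, whereas AMPK+/+ 2 and AMPK-/- 3 held 291212 and 335986. Hindbrain markers summed to more CPM (counts per 1000000 counts of a library) than forebrain markers, at 50.7 to 201 against 1.09 to 10.3 CPM in the neonatal and 159 to 519 against 40.0 to 91.9 CPM in the prenatal libraries. Lmx1b was lower in LMX1B-/- than in LMX1B+/+ (log2 fold change −3.82 ± 0.41, edgeR adjusted p = 0.00287), but overlapped between LMX1B+/- (11.7 to 25.5 CPM) and LMX1B+/+ (12.1 to 21.7 CPM). Prkaa2, the gene of AMPKα2, overlapped between AMPK-/- (11.9 to 24.7 CPM) and AMPK+/+ (22.2 to 32.8 CPM), with a log2 fold change of −0.20 ± 0.23 (edgeR adjusted p = 0.659). The libraries labelled AMPK-/- and LMX1B+/- are therefore named by their labels throughout, without a check of the genotype from the targeted gene. Since the construction of the alleles is not given, a count over the whole gene may not show a deletion. The study shows a genotyping PCR of AMPKα2-/- and wild-type mice, without tying it to libraries. Summed oligodendrocyte markers ran from 14357 to 24304 CPM in the neonatal and from 154 to 356 CPM in the prenatal experiment. The myelin genes Mbp (7019 to 11971 CPM) and Mobp (2136 to 3438 CPM) were high in all 6 AMPK libraries for newborn mice, whose brain has only begun to form myelin. The markers thus question the stated age, and neonatal is used here as the study's word for that experiment. Age and experiment cannot be told apart, so values of the 2 experiments are set side by side and not tested against each other.

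The mitochondrially encoded genes took a larger share of all counts in the libraries labelled AMPK-/- and LMX1B+/- than in their wild types. In AMPK+/+ 1 to 3 the share was 13.5, 13.9 and 10.4%, and in AMPK-/- 1 to 3 it was 20.0, 21.6 and 21.7%. The genotypes did not overlap, with means of 12.6% ± 1.93 (SD, n = 3) and 21.1% ± 0.930 (SD, n = 3) and a difference of 8.53 percentage points. In LMX1B+/+ 1 to 3 the share was 5.64, 6.74 and 5.57%, in LMX1B+/- 1 to 3 it was 11.3, 9.58 and 14.7%, and in LMX1B-/- 1 to 3 it was 7.55, 7.98 and 7.23%. The heterozygous libraries were thus the highest of the prenatal experiment, and those of LMX1B-/- lay between them and the wild type without overlap. The means were 5.98% ± 0.657, 11.9% ± 2.62 and 7.59% ± 0.377 (SD, n = 3 each). LMX1B+/- and LMX1B-/- were above LMX1B+/+ by 5.87 and 1.60 points, and LMX1B-/- minus LMX1B+/- was −4.27 points.

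Each of these 4 differences had a two-sided exact permutation p of 0.1, the smallest that 3 against 3 libraries allow, so the design cannot reach 0.05 (Benjamini-Hochberg 0.255 over 28 comparisons of shares and ratios). The half-width of the 95% Wilson interval of a share was at most 0.139 points, which covers counting error only. In bulk tissue, fewer cells of a type and less RNA per cell cannot be told apart. AMPK+/+ 3 had the lowest neonatal share and held skeletal muscle RNA, with 16 of 16 markers detected and summing to 1684 CPM against 5.95 to 17.2 CPM in the other AMPK libraries. Without it the difference was 7.42 points, and without the 2 libraries under 1000000 counts it was 8.88 points. Summed choroid plexus markers were also higher in AMPK-/- (34.7 to 140 CPM) than in AMPK+/+ (13.7 to 24.4 CPM). Most of the AMPK-/- sums was Ttr, at 50.7, 23.6 and 110 CPM against 1.87, 6.87 and 5.74 CPM in AMPK+/+. Kcnj13 was also separated, and the other listed markers overlapped between the genotypes. The part of choroid plexus in the result was not tested.

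In the prenatal experiment, markers of erythroid cells, which include the globins, summed to 3509 to 6694 CPM in LMX1B+/-, 492 to 1551 CPM in LMX1B+/+ and 1118 to 2463 CPM in LMX1B-/-. They were highest in LMX1B+/- without overlap, whereas LMX1B+/+ and LMX1B-/- overlapped. Oligodendrocyte markers (154 to 219 CPM in LMX1B+/-, 292 to 324 CPM in LMX1B+/+ and 348 to 356 CPM in LMX1B-/-) and astrocyte markers (781 to 953, 1032 to 1529 and 1348 to 1651 CPM in the same order) were lowest in LMX1B+/-. Neuronal markers overlapped between the 3 genotypes, at 3631 to 4872 CPM. In the neonatal experiment the erythroid sums overlapped, at 250 to 359 CPM in AMPK+/+ and 295 to 472 CPM in AMPK-/-, and the embryonic globins Hbb-y, Hbb-bh1 and Hba-x were at 0. The part of blood and glia in the LMX1B+/- result was not tested.

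**Figure D1:**
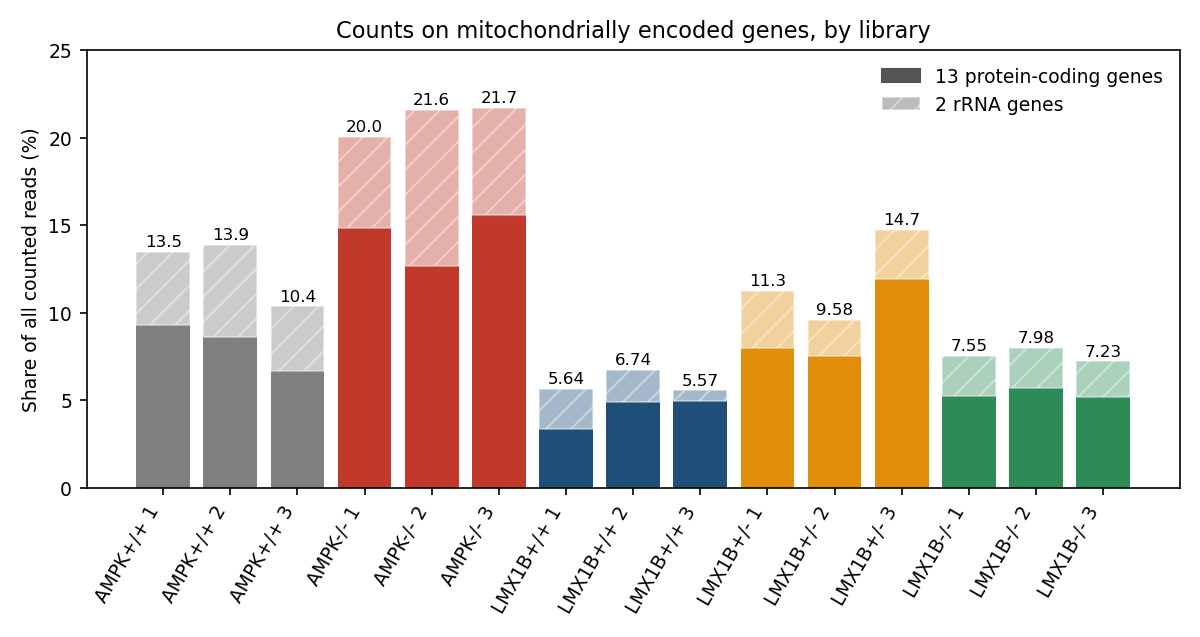
Share of all counts, in percent (y axis), on mitochondrially encoded genes in each of the 15 libraries; the parts of a bar stand for the protein-coding and the rRNA genes, and the number above gives all 37 genes. The 3 AMPK-/- libraries sit between 20.0 and 21.7%, above 13.9% in AMPK+/+, and the 3 LMX1B+/- libraries sit between 9.58 and 14.7%, above the other prenatal libraries.

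The protein-coding genes carried most of this difference. Their share was 9.29, 8.60 and 6.69% in AMPK+/+ and 14.8, 12.7 and 15.6% in AMPK-/-. It was 3.36, 4.91 and 4.98% in LMX1B+/+, 7.97, 7.56 and 11.9% in LMX1B+/- and 5.22, 5.73 and 5.18% in LMX1B-/-. None of these 4 pairs of groups overlapped, each again with an exact permutation p of 0.1.

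The libraries were made from poly(A) RNA, so rRNA counts cover only the rRNA that passed that selection. The 2 rRNA genes, mt-Rnr1 for the small and mt-Rnr2 for the large ribosomal subunit, were more variable. Their joint share was 4.20, 5.28 and 3.67% in AMPK+/+ and 5.20, 8.89 and 6.11% in AMPK-/-, and 2.27, 1.83 and 0.595% in LMX1B+/+, 3.29, 2.02 and 2.80% in LMX1B+/- and 2.32, 2.25 and 2.05% in LMX1B-/-. All 4 comparisons overlapped, with exact permutation p-values from 0.2 to 0.4. By gene, in CPM on edgeR's scaled library sizes, as for all CPM of mt- and other nuclear genes below, mt-Rnr1 was at 16095, 19692 and 11424 in AMPK+/+ and 19370, 38162 and 22453 in AMPK-/-. mt-Rnr2 was at 25282, 31495 and 21791 CPM and 34119, 61939 and 39560 CPM. The genotypes overlapped in mt-Rnr1 and not in mt-Rnr2, and AMPK-/- 2 was the highest library in both.

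In the prenatal experiment mt-Rnr1 was at 8824, 6836 and 1839 CPM in LMX1B+/+, 15062, 7214 and 11301 CPM in LMX1B+/- and 7869, 8165 and 7176 CPM in LMX1B-/-. mt-Rnr2 was at 14733, 11424 and 2965, then 24274, 13212 and 20183, then 14149, 13556 and 12652 CPM in the same order. LMX1B+/+ 3 stood apart in both, with 0.120 rRNA counts per protein-coding count against 0.676 and 0.372 in LMX1B+/+ 1 and 2. In the same library the identifier ENSMUSG00000119584, which had no symbol in the table used, took 4.56% of the counts against 21.9 and 18.4%. AMPK-/- 2 had 0.701 rRNA counts per protein-coding count, against 0.351 and 0.391 in AMPK-/- 1 and 3. There the identifier took 13.4% against 7.78 and 8.24%. Within each group except AMPK+/+, these 2 measures ranked the libraries alike, and a part of the poly(A) selection in this was not tested. The ratio of mt-Rnr2 to mt-Rnr1 nevertheless stayed between 1.57 and 1.91 in all 15 libraries.

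Neither rRNA gene passed the test in any comparison as fitted, but the calls depended on the setting. Both were called in AMPK-/- without AMPK+/+ 1, without AMPK-/- 1 and without the filter on low counts. In LMX1B+/- both were called with library sizes alone, without LMX1B+/+ 1, without LMX1B+/- 2 and without the filter, and without the filter also in LMX1B-/- against LMX1B+/-. The log2 fold changes of mt-Rnr1 and mt-Rnr2 were 0.76 ± 0.26 and 0.79 ± 0.25 in AMPK-/- (edgeR adjusted p = 0.0683 and 0.0534) and 0.94 ± 0.42 and 0.99 ± 0.42 in LMX1B+/- (edgeR adjusted p = 0.0941 and 0.0795). In LMX1B-/- against LMX1B+/+ that of mt-Rnr1 was 0.41 ± 0.41, and −0.05 without LMX1B+/+ 3.

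Tested gene by gene within the whole table, 16 of the 22 mt- genes that passed the filter on low counts rose in AMPK-/- and 0 fell, while the other 15 of the 37 did not pass the filter. In that comparison 8.94% of 17397 genes were called at an adjusted p under 0.05 (edgeR quasi-likelihood test, Benjamini-Hochberg), 3.77% as higher and 5.17% as lower. The median log2 fold change was 0.98 over the 22 genes and −0.01 over all genes. In 17 of them all AMPK-/- libraries lay above all AMPK+/+ libraries, as in 13.9% of all genes. With all libraries, 19 of the 22 genes had an unadjusted p under 0.05, where 24.6% of all genes did. The number of calls changed with the libraries kept. Without the shallow AMPK-/- 3 it was 10, without the shallow AMPK+/+ 2 it was 15, and without AMPK+/+ 3 it was 14. Without both shallow libraries, a fit of 4 libraries, it was 0 of 23 by edgeR, with a median log2 fold change of 1.02.

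Of the protein-coding genes, 12 of 13 rose in AMPK-/-. The largest fold change among them was that of mt-Nd3, a subunit of complex I, the NADH dehydrogenase at the entry of the chain. It was at 478, 469 and 402 CPM in AMPK+/+ and at 948, 973 and 1097 CPM in AMPK-/-. Each AMPK-/- library was above all of AMPK+/+, with a log2 fold change of 1.16 ± 0.16, edgeR adjusted p = 0.00028. Values in parentheses after a gene are log2 fold changes with their standard errors from here on.

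The other complex I genes moved alike. mt-Nd1 was at 9884, 8848 and 6303 CPM in AMPK+/+ and 17108, 15874 and 18461 CPM in AMPK-/- (1.04 ± 0.21, edgeR adjusted p = 0.00462). mt-Nd2 was at 6680, 6129 and 4579 CPM and 11157, 11297 and 11958 CPM (0.99 ± 0.20, edgeR adjusted p = 0.00429), and mt-Nd4 at 9817, 8731 and 6324 CPM and 16683, 15150 and 16557 CPM (0.96 ± 0.21, edgeR adjusted p = 0.00715). In all 3, AMPK+/+ 3 was the lowest library. mt-Nd4l was at 229, 299 and 265 CPM and 520.1, 365 and 468 CPM (0.79 ± 0.17, edgeR adjusted p = 0.00696), and here AMPK+/+ 1 was the lowest. mt-Nd5 was at 5622, 5397 and 5107 CPM and 9728, 8409 and 9332 CPM (0.77 ± 0.19, edgeR adjusted p = 0.0133). mt-Nd6, the one mRNA copied from the opposite strand, was at 2108, 2010 and 1751 CPM and 3600, 3151 and 3805 CPM (0.85 ± 0.18, edgeR adjusted p = 0.00481). Strand use in counting is not given, so reads of the other strand may be among the mt-Nd6 counts. None of the 7 complex I genes overlapped between the genotypes.

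Complex III passes electrons to cytochrome c, and its cytochrome b gene mt-Cytb was at 12054, 10292 and 7693 CPM in AMPK+/+ and 19894, 18236 and 20600 CPM in AMPK-/- (0.97 ± 0.22, edgeR adjusted p = 0.00783). Complex IV, cytochrome c oxidase, reduces oxygen at the end of the chain. Its catalytic subunit gene mt-Co1 had the most counts of the 13, at 25202, 24271 and 15756 CPM and 40262, 36612 and 40240 CPM (0.84 ± 0.23, edgeR adjusted p = 0.026). mt-Co2 was at 5302, 4748 and 3367 CPM and 8937, 9267 and 10151 CPM (1.08 ± 0.20, edgeR adjusted p = 0.00263), and mt-Co3 at 6246, 5517 and 3892 CPM and 10425, 10153 and 11628 CPM (1.04 ± 0.21, edgeR adjusted p = 0.00371). The genotypes did not overlap in any of the 4 genes. mt-Co1 was called in 2 of the 6 fits that left out 1 library, mt-Nd5 in 4, mt-Nd1, mt-Nd4 and mt-Cytb in 5, and the other 7 genes that rose in all 6.

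The counts of the ATP synthase genes parted. mt-Atp6, which codes for a subunit of the proton channel, was at 7970, 6625 and 5066 CPM in AMPK+/+ and 13173, 13199 and 14064 CPM in AMPK-/- (1.04 ± 0.21, edgeR adjusted p = 0.00378). mt-Atp8, a small subunit of the same complex, was at 18.8, 6.66 and 45.3 CPM and at 36.7, 26.9 and 45.3 CPM. Its groups overlapped, and its log2 fold change of 0.18 ± 0.31 did not pass the test (edgeR adjusted p = 0.761). It had 2 counts in AMPK+/+ 2.

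The end of mt-Atp8 is also the start of mt-Atp6. The sequence of mt-Atp8 (GENCODE M21, GRCm38) is shown because it is the one protein-coding gene that passed the test neither in AMPK-/- nor in LMX1B+/-, with the 43 of its 204 bases that it shares with mt-Atp6 in capitals:
mt-Atp8: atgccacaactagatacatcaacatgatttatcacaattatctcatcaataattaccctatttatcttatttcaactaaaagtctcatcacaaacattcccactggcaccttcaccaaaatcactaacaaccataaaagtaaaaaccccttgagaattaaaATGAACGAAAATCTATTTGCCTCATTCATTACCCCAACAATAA
A read that covers the shared bases belongs to both genes, and how such reads were counted is not given in the sources used here. The values of mt-Atp8 are therefore counts on this gene and are not read as the level of a separate RNA.

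In the prenatal experiment, 15 of 21 tested mt- genes rose in LMX1B+/- against LMX1B+/+ and 0 fell, where 36.7% of 21729 genes were called, 19.4% as higher and 17.3% as lower. The median log2 fold change was 1.16 over the 21 genes and −0.03 over all genes. In 13 of them all LMX1B+/- libraries lay above all LMX1B+/+ libraries, as in 23.4% of all genes. Again 12 of 13 protein-coding genes rose. mt-Nd3 had the largest fold change, with 162, 192 and 185 CPM in LMX1B+/+ and 547, 464 and 716 CPM in LMX1B+/- (1.68 ± 0.16, edgeR adjusted p = 9.92e-06). Every heterozygous library lay above every wild-type library.

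Of the other complex I genes, mt-Nd1 was at 3310, 4867 and 4034 CPM in LMX1B+/+ and 10639, 8168 and 15446 CPM in LMX1B+/- (1.49 ± 0.23, edgeR adjusted p = 0.00026). mt-Nd2 was at 2273, 3535 and 3072 CPM and 6340, 4514 and 8858 CPM (1.15 ± 0.23, edgeR adjusted p = 0.00191). Both genes were separated between the genotypes, as were mt-Nd4 and mt-Nd4l. mt-Nd4 was at 4087, 5852 and 5395 CPM and 12063, 9633 and 17236 CPM (1.34 ± 0.21, edgeR adjusted p = 0.000375), and mt-Nd4l at 208, 249 and 166 CPM and 467, 334 and 528 CPM (1.09 ± 0.18, edgeR adjusted p = 0.000468). The smallest of the 12 rises were those of mt-Nd5 and mt-Nd6, whose groups overlapped. mt-Nd5 was at 3437, 5269 and 2237 CPM and 6897, 4756 and 9458 CPM (0.95 ± 0.29, edgeR adjusted p = 0.02). mt-Nd6 was at 1088, 1809 and 666 CPM and 2311, 1664 and 3009 CPM (0.97 ± 0.29, edgeR adjusted p = 0.0195). In both, LMX1B+/+ 3 was the lowest library and LMX1B+/+ 2 lay above LMX1B+/- 2.

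The complex III and IV genes were separated throughout. mt-Cytb was at 4907, 7328 and 6496 CPM in LMX1B+/+ and 14387, 11299 and 19372 CPM in LMX1B+/- (1.27 ± 0.21, edgeR adjusted p = 0.00055), and mt-Co1 at 8635, 11108 and 8757 CPM and 20460, 17366 and 29100 CPM (1.23 ± 0.20, edgeR adjusted p = 0.000496). mt-Co2 was at 1600, 2242 and 2068 CPM and 5659, 4301 and 7547 CPM (1.57 ± 0.20, edgeR adjusted p = 8.25e-05). mt-Co3 was at 2070, 2347 and 2658 CPM and 6225, 5591 and 8593 CPM (1.53 ± 0.18, edgeR adjusted p = 4e-05). In each of them LMX1B+/- 3 was the highest library. Of the ATP synthase genes, mt-Atp6 was at 3061, 4184 and 4395 CPM and 9432, 8345 and 13914 CPM (1.45 ± 0.21, edgeR adjusted p = 0.000166). mt-Atp8, at 21.3, 57.04 and 30.2 CPM and 45.8, 34.7 and 42.7 CPM, overlapped and again did not pass the test (0.18 ± 0.26, edgeR adjusted p = 0.619). mt-Nd5 and mt-Nd6 were each called in 3 of the 6 fits that left out 1 of the libraries compared, and the other 10 genes that rose in all 6.

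In LMX1B-/- against LMX1B+/+, 0 of 21 tested mt- genes were called by edgeR, where 0.0184% of all genes (4 genes, Lmx1b among them) were called. At an unadjusted p under 0.05 there were 3, mt-Te, mt-Atp8 and mt-Co3, where 8.09% of all genes were, and DESeq2 called 0. The median log2 fold change was 0.26 over the 21 genes and 0.01 over all genes. The protein-coding values lay between −0.63 ± 0.26 for mt-Atp8 and 0.43 ± 0.29 for mt-Nd6. In 6 of the 21 genes, mt-Te, mt-Co1, mt-Co2, mt-Co3, mt-Atp6 and mt-Nd4, all LMX1B-/- libraries lay above all wild-type libraries, as in 11.9% of all genes.

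The LMX1B-/- libraries were close to each other. mt-Nd3 was at 216, 240.2 and 179 CPM, which overlapped the wild type (0.24 ± 0.16, edgeR adjusted p = 0.696). mt-Co1 was at 12134, 13362 and 12615 CPM, above LMX1B+/+, with 0.42 ± 0.20, edgeR adjusted p = 0.627. mt-Cytb was at 6983, 8035 and 7375 CPM and overlapped (0.26 ± 0.21, edgeR adjusted p = 0.749), and mt-Atp8 was at 20.1, 23.5 and 26.7 CPM.

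Against LMX1B+/-, 13 of 21 tested mt- genes fell in LMX1B-/- and 0 rose, where 25.5% of all genes were called, 14.0% as lower and 11.5% as higher. The median log2 fold change was −0.95 over the 21 genes and 0.02 over all genes, and 15 of them lay lower without overlap, as did 21.4% of all genes. The calls were 11 protein-coding genes, mt-Te and mt-Tl1. mt-Nd3 again had the largest fold change of the mRNAs (−1.44 ± 0.16, edgeR adjusted p = 6.42e-05), followed by mt-Nd1 (−1.25 ± 0.23) and mt-Atp6 (−1.17 ± 0.21), and mt-Atp8 was among the calls (−0.81 ± 0.26, edgeR adjusted p = 0.0392), although in 1 of the 6 fits without 1 library only and not by DESeq2 (adjusted p = 0.0782). mt-Nd5, at 4786, 5221 and 4420 CPM in LMX1B-/-, and mt-Nd6, at 1527, 1741 and 1539 CPM, overlapped LMX1B+/- and did not pass the test (−0.55 ± 0.29 and −0.54 ± 0.29, edgeR adjusted p = 0.184 and 0.201). This comparison uses the same heterozygous libraries as the comparison with LMX1B+/+, and is no separate evidence of their level.

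**Figure D2:**
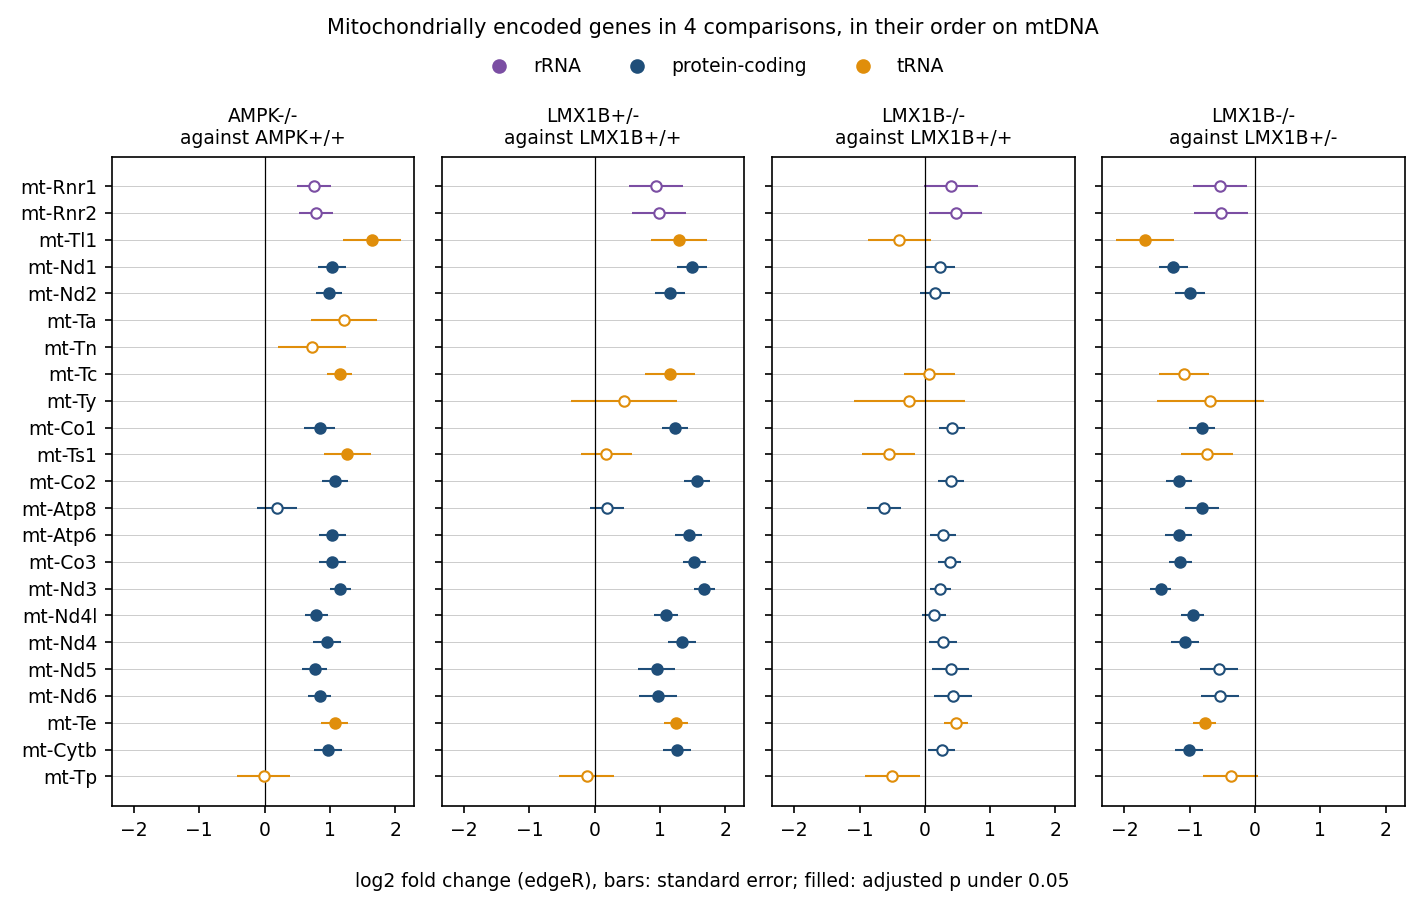
Log2 fold change (x axis, edgeR) of each tested mt- gene, listed in its order on mtDNA, in the 4 comparisons; bars are standard errors and filled points have an adjusted p under 0.05. Filled points lie to the right of 0 in AMPK-/- (16) and LMX1B+/- (15) and to the left of 0 in LMX1B-/- against LMX1B+/- (13), and 0 are filled in LMX1B-/- against LMX1B+/+.

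The order of the fold changes was alike in the 2 experiments, which share no library. Over the 13 protein-coding genes, the log2 fold changes of AMPK-/- against AMPK+/+ and of LMX1B+/- against LMX1B+/+ had a Pearson r of 0.969 and a Spearman rho of 0.934, and 0.92 and 0.916 over the 12 genes without mt-Atp8. This is a description across genes, which are not independent replicates and share gene length, sequence and nuclear copies between the experiments.

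The makeup of the mitochondrial mRNA was therefore compared. Of the counts on the 13 protein-coding genes, mt-Co1 held 25.4 to 29.1% in the neonatal and 21.4 to 25.2% in the prenatal libraries, the largest part in each library. The part of mt-Nd1 was 10.6% ± 0.190 in AMPK+/+ and 11.3% ± 0.283 in AMPK-/-, and 9.82% ± 0.289 in LMX1B+/+ and 11.1% ± 0.431 in LMX1B+/- (SD, n = 3 each). It was separated in both pairs, as was that of mt-Co2. In the first pair mt-Co3 also lay higher in AMPK-/-, 0 of 13 genes lay lower and 10 overlapped. In the second pair mt-Nd3 also lay higher in LMX1B+/- and mt-Atp8 lower. Each of these had an exact permutation p of 0.1, the smallest possible (Benjamini-Hochberg 0.306 over 52 comparisons), so none passed a threshold of 0.05.

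The parts of 9 of 13 protein-coding genes were separated between LMX1B-/- and LMX1B+/-. mt-Nd5 took 9.65, 9.42 and 8.82% of the mRNA counts in LMX1B-/- and 7.22, 6.22 and 7.07% in LMX1B+/-. mt-Nd6 took 3.08, 3.14 and 3.07% against 2.42, 2.18 and 2.25%. Both were higher in LMX1B-/-, as was mt-Co1, whereas mt-Nd1, mt-Co2, mt-Atp6, mt-Co3, mt-Nd3 and mt-Nd4 were lower, each with an exact permutation p of 0.1. Per 100 counts of the other 12 protein-coding genes, mt-Nd6 had 3.20 ± 0.0418 in LMX1B-/- and 2.34 ± 0.132 in LMX1B+/- (SD, n = 3 each). The wild type spread from 1.69, in LMX1B+/+ 3, to 3.83 and spanned both. Reads of the other strand may be part of these mt-Nd6 counts, since strand use in counting is not given.

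Levels of different genes were compared per length, by the authors' reads per kilobase of gene, scaled to the library total (RPKM), whose 2 tables were normalized separately. Since the libraries were of poly(A) RNA, an rRNA value beside an mRNA value is no comparison of their levels in the tissue. The mean over AMPK+/+ was highest for mt-Rnr2 (17326 ± 2831 RPKM, SD, n = 3), mt-Rnr1 (17198 ± 4030 RPKM) and mt-Co1 (14676 ± 2954 RPKM), which did not differ beyond their spread. mt-Atp6 followed with 10044 ± 1825 RPKM, and mt-Nd5 was lowest of the 12 longer genes with 3091 ± 36.5 RPKM. The shortest 3 protein-coding genes were lower still, with mt-Nd3 (348 bases) at 1354 ± 66.7, mt-Nd4l (297 bases) at 936 ± 136 and mt-Atp8 (204 bases) at 124 ± 109 RPKM. These 3 were the lowest of the 15 rRNA and protein-coding genes in all 5 groups. mt-Nd4l shares 7 of its bases with mt-Nd4, as mt-Atp8 shares 43 with mt-Atp6. How shared reads and short genes were counted is not given, so these lower values are not read as lower levels of RNA.

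In LMX1B+/+ the order began with mt-Co1 at 6539 ± 997, mt-Rnr2 at 6180 ± 3453, mt-Atp6 at 6162 ± 1830 and mt-Rnr1 at 6156 ± 3380 RPKM, again within their spread. mt-Nd3 had a mean of 1354 and 2746 RPKM in AMPK+/+ and AMPK-/- and of 553, 1487 and 633 RPKM in LMX1B+/+, LMX1B+/- and LMX1B-/-. mt-Nd4l had 936 and 1450 RPKM, and 736, 1336 and 802 RPKM. mt-Atp8 differed from both, with 124 and 170 RPKM in the neonatal groups and 188, 181 and 119 RPKM in the prenatal groups. Its mean was higher in LMX1B+/+ than in AMPK+/+, unlike those of the other 12 protein-coding genes.

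**Figure D3:**
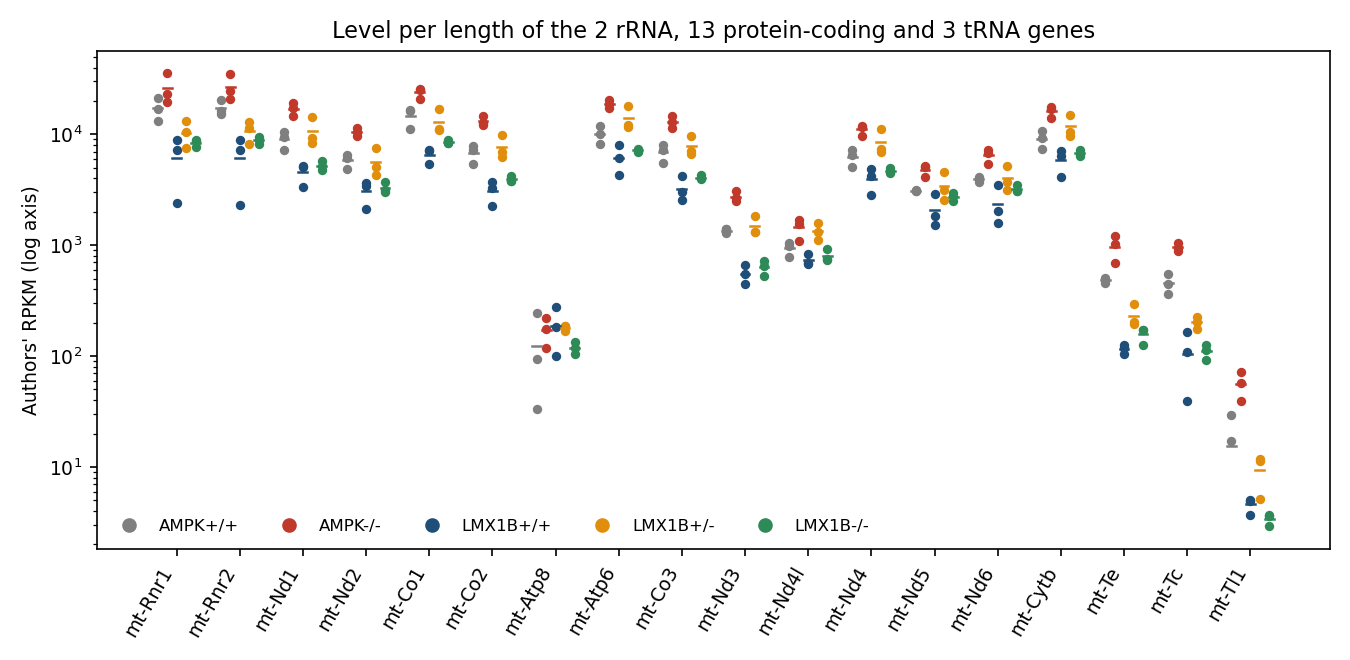
The authors' RPKM (y axis, log scale) of rRNA, protein-coding and tRNA genes in each library, with points colored by genotype and lines for group means. mt-Nd3, mt-Nd4l and mt-Atp8 sit below the other protein-coding genes, and AMPK+/+ 2, which had 0 counts of mt-Tl1, has no point there on the log axis.

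The 22 tRNA genes, whose products decode the RNA of the 13 protein-coding genes, were counted rarely, and together made up 0.00804 to 0.00824% of the counts in AMPK+/+ and 0.0128 to 0.0188% in AMPK-/-. mt-Tf, mt-Tk and mt-Ts2 had 0 counts in all 15 libraries, which allows up to 0.0676 to 9.98 CPM at a floor of 3 counts per library. Since the libraries were of poly(A) RNA, this is a limit of counting and gives no level of the mature tRNA. Counts were found in every library for 5 tRNA genes, and 7 passed the filter in the neonatal and 6 in the prenatal experiment. Ranked by mean CPM the first 5 were mt-Te, mt-Tc, mt-Ts1, mt-Ta and mt-Tp. mt-Ta owed its rank to 3 counts in each of the 2 shallow libraries. Over the other 13 libraries, an alternative chosen after seeing the data, its mean was 0.930 CPM, below the 1.32 CPM of mt-Tl1. mt-Te and mt-Tc, the tRNAs for glutamate and cysteine, led with means of 27.1 and 24.2 CPM of library totals. Whether counting used the strand is not given, so reads from a tRNA and from the precursor of the other strand cannot be told apart. The first 5 all lie on the strand of mt-Nd6, opposite to that of the other mRNAs. Their counts are therefore not read as levels of mature tRNA.

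The 3 tRNA genes called in more than 1 comparison are shown with the anticodon in capitals (DNA letters, GENCODE M21, GRCm38):
mt-Te: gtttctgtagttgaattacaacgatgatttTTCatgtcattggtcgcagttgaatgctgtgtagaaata
mt-Tc: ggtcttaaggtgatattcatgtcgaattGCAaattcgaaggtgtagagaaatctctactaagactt
mt-Tl1: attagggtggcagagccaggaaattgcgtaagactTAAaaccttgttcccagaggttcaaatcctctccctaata
mt-Te lies between mt-Nd6 and mt-Cytb, mt-Tc in a group of tRNA genes before mt-Co1, and mt-Tl1, a tRNA for leucine, between mt-Rnr2 and mt-Nd1.

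mt-Te was at 34.5, 33.3 and 28.4 CPM in AMPK+/+ and 72.9, 53.3 and 84.6 CPM in AMPK-/- (1.08 ± 0.21, edgeR adjusted p = 0.00298). In the prenatal experiment it was at 7.42, 8.10 and 6.96 CPM in LMX1B+/+, 16.1, 14.3 and 22.7 CPM in LMX1B+/- and 11.3, 11.5 and 8.43 CPM in LMX1B-/-. It rose in LMX1B+/- (1.24 ± 0.18, edgeR adjusted p = 0.000193) and was lower in LMX1B-/- than there (−0.77 ± 0.18, edgeR adjusted p = 0.00694), and no 2 of the genotypes overlapped. mt-Tc was at 29.1, 23.3 and 33.2 CPM in AMPK+/+ and 70.8, 65.6 and 63.5 CPM in AMPK-/- (1.15 ± 0.19, edgeR adjusted p = 0.000964). In LMX1B+/+ it was at 7.46, 10.8 and 2.10, in LMX1B+/- at 16.2, 11.8 and 16.6 and in LMX1B-/- at 7.17, 7.96 and 5.94 CPM, and it rose in LMX1B+/- (1.16 ± 0.39, edgeR adjusted p = 0.0332), although it was called in 3 of the 6 fits without 1 of these libraries and had a DESeq2 adjusted p of 0.084.

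mt-Tl1 was near the limit, with 0 to 84 counts per library. It was at 2.17, 0 and 1.17 CPM in AMPK+/+ and 5.55, 4.86 and 3.02 CPM in AMPK-/- (1.64 ± 0.44, edgeR adjusted p = 0.0227). In the prenatal experiment it was at 0.387, 0.381 and 0.225 CPM in LMX1B+/+, 1.05, 0.387 and 0.960 CPM in LMX1B+/- and 0.258, 0.267 and 0.212 CPM in LMX1B-/-. It rose in LMX1B+/- (1.29 ± 0.43, edgeR adjusted p = 0.0314), where DESeq2 gave an adjusted p of 0.0514 and 2 of 6 fits without 1 library called it, and was lower in LMX1B-/- than in LMX1B+/- (−1.69 ± 0.44, edgeR adjusted p = 0.0139), a call made in 3 of 6 fits without 1 library.

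mt-Ts1, a tRNA for serine, was at 5.66, 6.66 and 3.27 CPM in AMPK+/+ and 10.04, 9.46 and 24.2 CPM in AMPK-/- (1.27 ± 0.36, edgeR adjusted p = 0.0302). In LMX1B+/- it was at 5.39, 4.68 and 6.42 CPM and overlapped LMX1B+/+, at 2.22, 9.42 and 3.04 CPM (0.18 ± 0.39, edgeR adjusted p = 0.755). For mt-Ts1 and mt-Tl1 in AMPK-/-, DESeq2 gave no adjusted p, and each was called in 4 of 6 fits without 1 library. mt-Ta, at 1.98, 9.98 and 1.34 CPM and 4.36, 3.95 and 9.07 CPM, and mt-Tp, at 3.49, 3.33 and 3.56 CPM and 4.16, 2.85 and 3.02 CPM, overlapped between the neonatal genotypes (1.21 ± 0.51 and −0.01 ± 0.40, edgeR adjusted p = 0.135 and 0.99). mt-Tp did not pass the test in the prenatal comparisons either, and mt-Ta did not pass the filter there.

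Parts of mtDNA have near-identical copies in the nuclear genome. A search of the transcripts of the 37 genes against all other transcripts of the annotation (GENCODE M21, GRCm38) found 7 unprocessed pseudogenes with at least 99% identity over at least 90% of their length. They were Gm29216 (matching part of mt-Co1), Gm28661 (mt-Co2), Gm10925 (mt-Atp6), Gm28437 (mt-Co3), Gm28438 (mt-Nd3), Gm10222 (mt-Nd4l) and Gm28439 (part of mt-Nd4). The first 120 bases of mt-Nd3 and its copy are printed because mt-Nd3 had the largest mRNA fold change in the 3 comparisons with calls, and the base that differs is in capitals:
mt-Nd3: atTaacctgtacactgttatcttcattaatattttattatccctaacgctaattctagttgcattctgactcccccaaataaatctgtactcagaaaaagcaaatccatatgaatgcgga
Gm28438: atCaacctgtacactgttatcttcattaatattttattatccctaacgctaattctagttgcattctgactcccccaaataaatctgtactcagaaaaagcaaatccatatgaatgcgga
Counted from 1 at the first base of the mt-Nd3 transcript, the substitution is T3C (mt-Nd3 base first), and it is the only one over the 345 aligned bases. A read from elsewhere in the gene therefore fits both.

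The copies that span nearly a whole gene were counted about as often as the gene. The ratio of mt-Nd3 counts to Gm28438 counts had a median of 0.985 over the 15 libraries (0.943 to 1.01), that of mt-Co2 to Gm28661 was 1.00 (0.990 to 1.01), and that of mt-Co3 to Gm28437 was 0.995 (0.967 to 1.01). For mt-Atp6 and Gm10925 it was 0.919 (0.890 to 0.935), and for mt-Nd4l and Gm10222 it was 0.995 (0.965 to 1.41, the highest in AMPK+/+ 2). The ratio was thus near 1 in all genotypes where the copy spans the gene. It was higher where the copy matches a part, with a median of 3.52 for mt-Co1 and 2.28 for mt-Nd4. Together the 7 copies held 2.31 to 5.74% of all counts in the neonatal and 1.12 to 4.32% in the prenatal experiment.

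**Figure D4:**
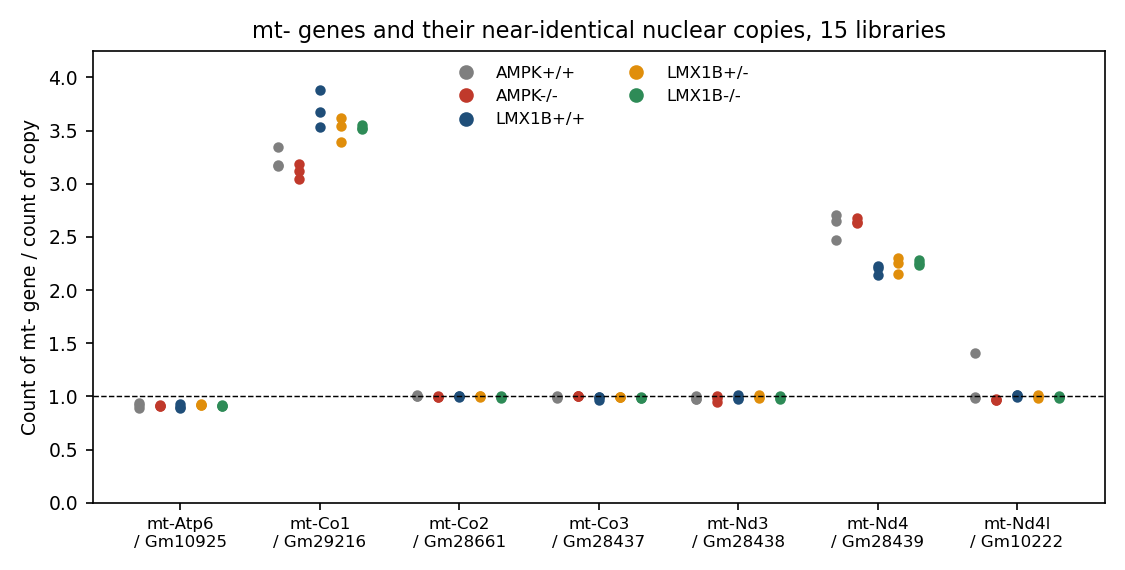
Counts of each mt- gene divided by counts of its near-identical nuclear copy (y axis) in the 15 libraries, with points colored by genotype; the dashed line marks equal counts. The 5 genes whose copy spans nearly the whole gene lie near 1, apart from AMPK+/+ 2 at 1.41 for mt-Nd4l, and mt-Co1 and mt-Nd4 lie higher.

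The copies had fold changes like those of the genes. Gm28438 rose by 1.18 ± 0.17 in AMPK-/- and by 1.67 ± 0.16 in LMX1B+/- (edgeR adjusted p = 0.000304 and 1.09e-05), beside 1.16 and 1.68 for mt-Nd3. All 7 copies were called as higher in these 2 comparisons and as lower in LMX1B-/- against LMX1B+/-, and 0 of 7 were called in LMX1B-/- against LMX1B+/+. Adding each copy to its gene, an alternative chosen after seeing the data, gave a share of 12.7 to 16.9% in AMPK+/+, 25.3 to 27.5% in AMPK-/-, 6.76 to 8.28% in LMX1B+/+, 12.5 to 19.04% in LMX1B+/- and 9.02 to 9.91% in LMX1B-/-. The numbers of called mt- genes were then 16, 15, 0 and 13, equal to those without the copies. Counts of gene and copy were nearly proportional over the libraries, so adding them could hardly change the calls and may count reads more than once. The equal numbers therefore do not show what part of the reads came from the copies. How reads that align to several places were counted is not given in the sources used here, so the levels of these 7 genes are uncertain. mt-Nd1, mt-Nd6, mt-Cytb and both rRNA genes had no match of at least 95% identity in the search.

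Few of the nuclear genes that maintain and express mtDNA were called in AMPK-/-. Of 51 listed genes 49 were tested, since Prorp had no match by symbol and Slirp was below the filter. In AMPK-/-, 0 rose and 2 fell, or 4.08%, where 8.94% of all genes were called, 3.77% as higher and 5.17% as lower. The list was thus called no more often than other genes, and the median log2 fold change of the 49 was −0.0014. Both that fell are coactivators of mitochondrial biogenesis. Pprc1 was at 16.6, 19.96 and 19.6 CPM in AMPK+/+ and 7.86, 8.42 and 9.07 CPM in AMPK-/-, without overlap (−1.16 ± 0.26, edgeR adjusted p = 0.00852). Ppargc1b overlapped, at 3.49, 19.96 and 11.3 CPM against 1.78, 3.63 and 3.02 CPM (−1.60 ± 0.48, edgeR adjusted p = 0.0376). In AMPK-/- 3, Pprc1 was at and Ppargc1b below 9.07 CPM, the floor of 3 counts in that library. DESeq2 called 0 of the 49, and leaving out 1 library at a time gave 0 calls without AMPK+/+ 3 or AMPK-/- 1, 1 without AMPK+/+ 2 or AMPK-/- 3, and 7 without AMPK+/+ 1. Tfam, which packages mtDNA and starts its transcription (0.17 ± 0.21), the polymerase Polrmt (−0.75 ± 0.25), the mRNA-binding factor Lrpprc (−0.21 ± 0.19) and the coactivator Ppargc1a (0.01 ± 0.23) did not pass the test, with edgeR adjusted p of 0.686, 0.0601, 0.521 and 0.993.

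In LMX1B+/-, 12 of the 49 genes rose and 6 fell. Together this is 36.7% of the list, the same as the 36.7% of all genes called (24.5% higher and 12.2% lower in the list, 19.4% and 17.3% over all genes), so the count is not a result about the list. With library sizes alone as scaling, which moved the median of all genes to −0.27, 4 rose and 8 fell. Of the 11 transcription genes 6 rose and 1 fell, of 19 RNA processing genes 6 rose and 0 fell, of 10 replication genes 2 fell, and of 9 biogenesis regulators 3 fell. Hsd17b10 and Trmt10c, subunits of the RNase P that cuts the 5′ ends of mitochondrial tRNAs, had the largest rises. Hsd17b10 was at 20.4, 25.4 and 22.5 CPM in LMX1B+/+ and 38.9, 39.6 and 51.6 CPM in LMX1B+/-, without overlap (0.93 ± 0.13, edgeR adjusted p = 0.00012). Trmt10c was at 10.9, 11.3 and 10.3 CPM and 17.99, 18.6 and 24.6 CPM (0.92 ± 0.14, edgeR adjusted p = 0.000237), and Mterf2, of a family of mtDNA-binding factors, followed with 0.82 ± 0.14. Tfam was at 29.4, 29.8 and 31.5 CPM in LMX1B+/+ and 36.8, 37.4 and 43.5 CPM in LMX1B+/- (0.38 ± 0.10, edgeR adjusted p = 0.00872), and was not called with library sizes alone.

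Polrmt had the opposite direction, at 21.6, 15.2 and 18.2 CPM in LMX1B+/+ and 12.7, 14.8 and 11.8 CPM in LMX1B+/- (−0.48 ± 0.16, edgeR adjusted p = 0.0307). The largest falls were those of Ppargc1b (−1.07 ± 0.24, edgeR adjusted p = 0.00421), Pprc1 (−0.78 ± 0.14, edgeR adjusted p = 0.000765) and Polg, the mtDNA polymerase (−0.57 ± 0.16, edgeR adjusted p = 0.0123). Ppargc1a also fell (−0.47 ± 0.13, edgeR adjusted p = 0.0108), and Lrpprc did not pass the test (0.02 ± 0.11, edgeR adjusted p = 0.919). Ppargc1b and Pprc1 were thus called as lower here and in AMPK-/-, though not by DESeq2 in AMPK-/-, and a link to the mt- genes was not tested.

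In LMX1B-/- against LMX1B+/+, 0 of the 49 genes were called by edgeR and by DESeq2, and 3 (6.12%) had an unadjusted p under 0.05, where 0.0184% of all genes were called and 8.09% had such a p. Tfam, Polrmt, Lrpprc and Ppargc1a had log2 fold changes of 0.20 ± 0.10, −0.03 ± 0.16, 0.10 ± 0.11 and 0.03 ± 0.12. Against LMX1B+/-, 4 of the 49 rose and 9 fell in LMX1B-/-, and 6 rose and 2 fell with library sizes alone. The 13 calls are 26.5% of the list, near the 25.5% of all genes called (11.5% as higher and 14.0% as lower). The number was 6 without LMX1B+/- 3, 7 without LMX1B-/- 3 and 8 without LMX1B-/- 1 or 2. The largest falls were Hsd17b10 (−0.76 ± 0.13), Mrpl12, a mitochondrial ribosomal protein that also binds Polrmt (−0.63 ± 0.10), and Mterf2 (−0.62 ± 0.14). The largest rises were Ppargc1b (0.97 ± 0.24), Pprc1 (0.52 ± 0.14) and Ppargc1a (0.50 ± 0.13).

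**Figure D5:**
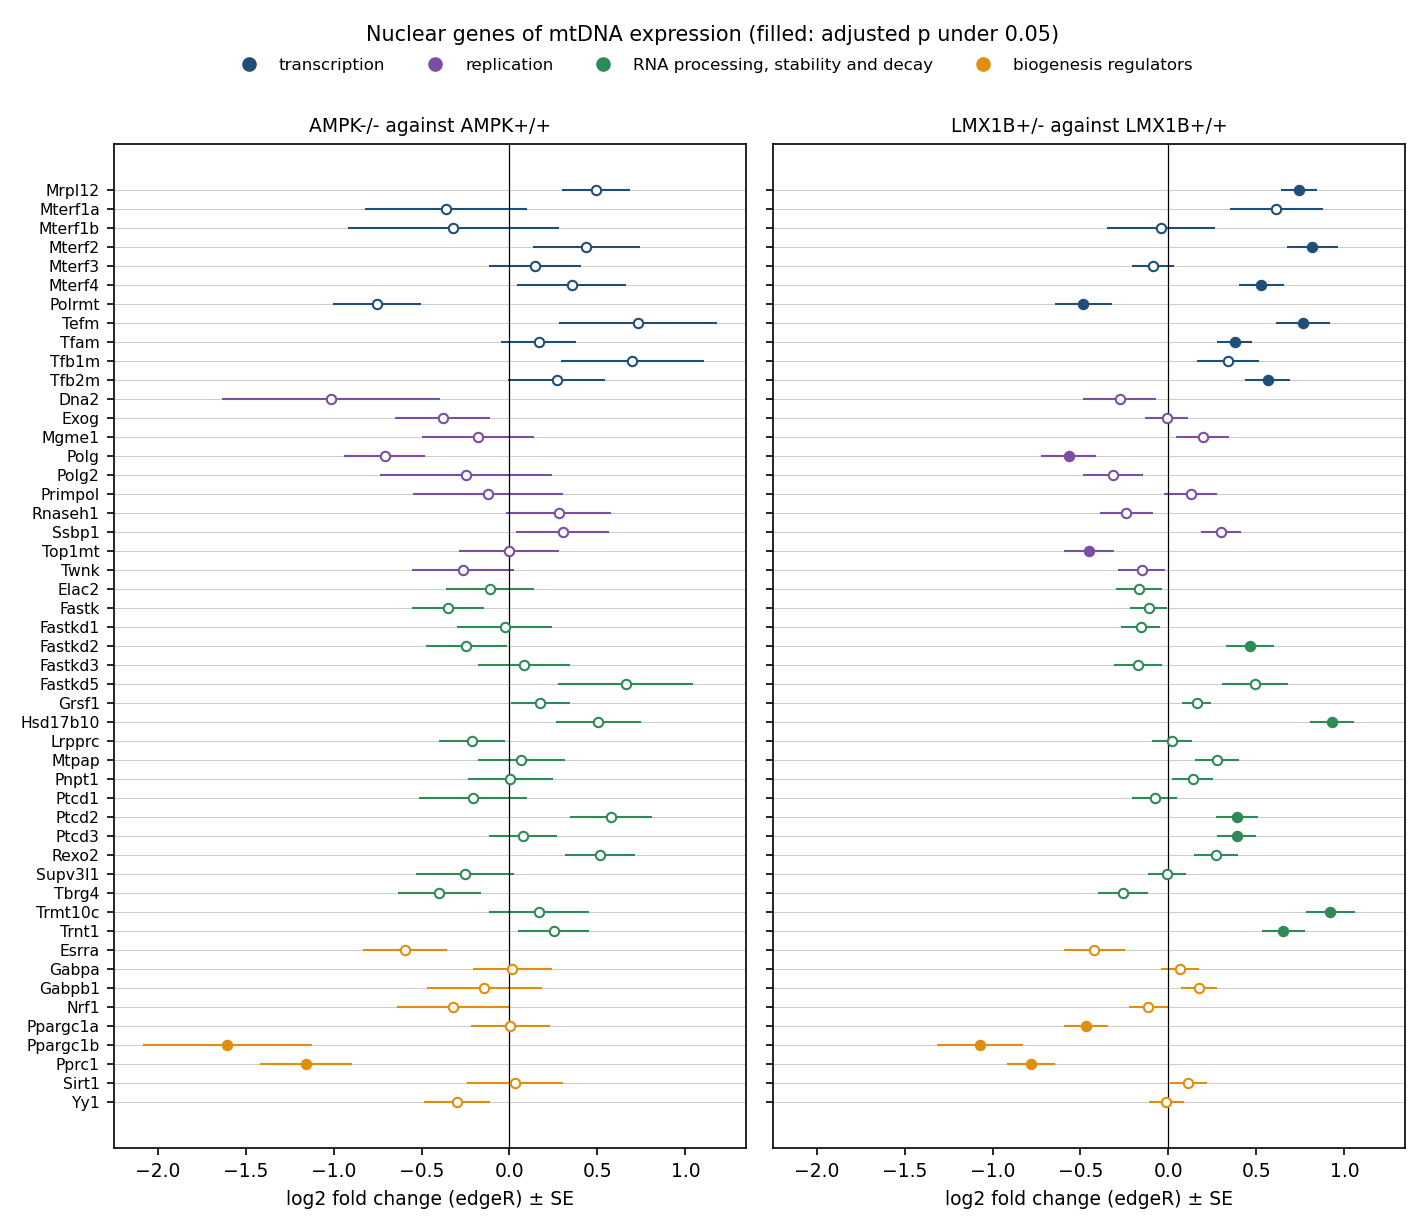
Log2 fold change with standard error (x axis, edgeR) of 49 nuclear genes for mtDNA transcription, replication, RNA processing and biogenesis in AMPK-/- against AMPK+/+ and in LMX1B+/- against LMX1B+/+; filled points have an adjusted p under 0.05. In the neonatal panel the 2 filled points are Ppargc1b and Pprc1, to the left of 0, and in the prenatal panel 12 filled points lie to the right and 6 to the left.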

How the data were processed

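Poly(A) RNA of 15 brain stem libraries was prepared with a directional kit and sequenced on an Illumina HiSeq. The authors aligned reads with HISAT2 to GRCm39, per the labels, and deposited raw read counts and RPKM per gene for each experiment. The counting rules, and whether strand was used, are not given in the sources used here. Symbols were matched by identifier for 51884 of 57180 identifiers, and the 37 that start with mt- were kept. Members and gene lists were chosen with earlier results of these data known.

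Counts of the whole table were tested with edgeR 4.0.16 (R 4.3.3), by a quasi-likelihood F-test on genotype with TMM scaling and filterByExpr, with 6 libraries in the AMPK fit and 9 in the LMX1B fit. Genes were called at a Benjamini-Hochberg adjusted p under 0.05. Standard errors were taken from the fold change and the F statistic. Shares were compared by exact permutation tests in scipy 1.17.1, and RPKM values were only described. Values were given for the 2 rRNA and 13 protein-coding genes, for the 5 tRNA genes with the highest mean CPM and for each called one. Of the nuclear genes, Tfam, Polrmt, Lrpprc and Ppargc1a were always named, with the 3 largest called rises and falls of each comparison. Nuclear copies were found with blastn 2.17.0. Alternatives were DESeq2 1.42.0, other scalings, no filter, a replicate block, and fits without each library or without those under 1000000 counts. The fit was also run on simulated counts with as many raised as lowered genes, which does not probe a joint shift of the mt- genes. No 2 libraries of a group held identical counts. The table columns of AMPK+/+ 3 and LMX1B+/+ 3 carry a suffix and the number 4 of the library name, respectively.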

Additional observations from a re-analysis of the deposited data

How the results depend on the processing

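The shares of mt- genes kept their direction in all 4 comparisons under all alternatives run, and differed by 7.42 to 9.18 points in AMPK-/-, 4.44 to 7.01 in LMX1B+/-, 1.39 to 1.98 in LMX1B-/- against LMX1B+/+ and −5.41 to −2.84 against LMX1B+/- when 1 library was left out. In AMPK-/- the difference was 6.17 points over the 13 protein-coding genes and 10.9 points with nuclear copies added, an alternative chosen after seeing the data. The number of called mt- genes in AMPK-/- ran from 10 to 18 without 1 library and was 0 without the libraries under 1000000 counts, a fit of 4 libraries, and 14 by DESeq2, which gave no adjusted p for 2 genes. It was 1 without the filter in LMX1B-/- against LMX1B+/+ (mt-Atp8, lower). Called nuclear genes in AMPK-/-, 2 in the fit as reported, were 0 by DESeq2, 4 with TMM factors taken without mt- genes and ENSMUSG00000119584, 5 with library sizes alone, 4 with copies added, 0 to 7 without 1 library and 0 without the libraries under 1000000 counts. Those in LMX1B-/- against LMX1B+/- were 8 with library sizes alone and 6 to 16 without 1 library, and the cause was not tested. Library sizes alone moved the median log2 fold change of all genes to −0.18 in AMPK-/-, −0.27 in LMX1B+/- and 0.22 in LMX1B-/- against LMX1B+/-. Replicate numbers did not pair the libraries (same-number correlations −0.177 to 0.148), and a replicate block gave 18 (both rRNA genes among them), 14, 0 and 14 called mt- genes, 2, 17, 0 and 9 nuclear genes and the same share differences (8.53, 5.87, 1.60 and −4.27), with a smallest exact sign-flip p of 0.25. No called gene named in the text changed sign. Of uncalled ones in AMPK-/-, mt-Atp8 ran from −0.18 to 0.96 (log2 fold change) without 1 library and was −0.0081 without the shallow libraries, mt-Tp ran from −0.26 to 0.21 and was 0.15 with the replicate block, Tfam was −0.016 with library sizes alone and −0.0064 with the block, and Ppargc1a ran from −0.23 to 0.42 and was −0.0054 by DESeq2, −0.032 with TMM without mt- genes, −0.18 with library sizes alone and −0.036 with copies added. In LMX1B+/-, mt-Atp8 ran from −0.080 to 0.67, mt-Ts1 from −0.16 to 1.05, mt-Tp from −0.53 to 0.31 and Lrpprc from −0.067 to 0.13, and library sizes alone gave −0.059 for mt-Atp8, −0.043 for mt-Ts1 and −0.24 for Lrpprc. In LMX1B-/- against LMX1B+/+, mt-Rnr1 ran from −0.045 to 0.84, mt-Nd2 from −0.0069 to 0.30, mt-Nd4l from −0.027 to 0.29, mt-Tc from −0.41 to 0.59, mt-Ts1 from −0.89 to 0.32, Polrmt from −0.17 to 0.11 and Ppargc1a from −0.061 to 0.11. Against LMX1B+/-, Lrpprc ran from −0.062 to 0.16, and Tfam was 0.029 with library sizes alone. A floor of 3 counts was 9.07 to 9.98 CPM in the 2 shallow libraries and at most 0.198 CPM elsewhere, so tRNA values below it rest on fewer than 3 counts. Among them were mt-Tl1 (0 and 1 counts) and mt-Tp (1 and 1) in AMPK+/+ 2 and AMPK-/- 3, and mt-Ts1 (2 counts) in AMPK+/+ 2.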

Other observations

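Less similar nuclear copies of the mitochondrial genes were counted at lower levels. Gm13340, which matches the whole of mt-Co1 at 97.6% identity, had 694636 counts over the 15 libraries against 6178118 for mt-Co1. Gm13341 matches mt-Co2 at 95.9% with 277493 counts, Gm13339 matches part of mt-Nd2 at 96.7% with 94543 counts, and Gm4076 matches part of mt-Nd5 at 95.2% with 14164 counts against 1947844 for mt-Nd5.

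In the libraries labelled AMPK-/-, Lmx1b was at 2.76, 8.57 and 5.95 CPM by library total against 19.1, 13.7 and 14.9 CPM in AMPK+/+ (log2 fold change −1.35 ± 0.37, edgeR adjusted p = 0.0233).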
